A study of Mus musculus with 2 samples.

Results

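The genes described here are 10 components of the machinery that takes a cell through G1, the phase before DNA synthesis: the D-type cyclins Ccnd1, Ccnd2 and Ccnd3, their kinase partners Cdk4 and Cdk6, the E-type cyclins Ccne1 and Ccne2 with their kinase Cdk2, the retinoblastoma gene Rb1, and the transcription factor E2f1. Every probe set whose platform annotation named exactly 1 of these genes was taken, which gave 29 of the 45101 probe sets on the array. Of these, 25 were above the background floors of both arrays, 2 on 1 array only and 2 on neither. All 10 genes, of 18193 with a probe set of their own, had a probe set that exceeded both floors.

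The study measured epithelium of fetal lung from ICR mice at embryonic day 11 on Affymetrix arrays, 1 array per culture condition. In both conditions the epithelium was first grown in Matrigel, a basement membrane gel, for 4 days in medium containing FGF10, a growth factor of lung budding, and CHIR99021. This compound inhibits glycogen synthase kinase 3, by which beta-catenin is spared from breakdown and canonical Wnt signalling is turned on. The epithelium was then fragmented, embedded again and cultured for 2 further days with FGF10, with CHIR99021 present in 1 condition and absent in the other. Both conditions had therefore been exposed to the inhibitor, and the comparison is its continued presence against its withdrawal. With 1 array each, no spread between cultures could be measured, no test was possible and no p-value is given. Fewer cells of a type and less RNA per cell cannot be told apart in such samples.

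As background, D-type cyclins are made in response to growth signals and activate Cdk4 and Cdk6, which phosphorylate the Rb1 protein. Rb1 then releases E2F factors such as E2f1, which switch on the E-type cyclins and the genes of DNA synthesis. Cyclin E with Cdk2 completes the phosphorylation of Rb1 and starts replication. Ccnd1 has been described in other cell types as a target gene of beta-catenin, and glycogen synthase kinase 3 is known to promote the breakdown of cyclin D1 protein, a step that arrays of RNA do not measure.

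RefSeq promoter windows, each 300 bases long (250 before and 50 after the transcription start), were held for 6 of the 10 genes, and for Ccnd1, Ccnd2, Ccne2 and Rb1 none was used here. The windows were searched on both strands for the E2F cores GCGGGAA and GCGCCAA and for the TCF/LEF core CTTTGAT, since E2F factors and the DNA-binding partners of beta-catenin bind such letters. The searched motifs do not overlap in these windows, and a match is a description of letters and not of a bound site. Among the members, Cdk2 held 2 matches to GCGGGAA, starting 140 and 10 bases before the start, and Cdk4 held 1 match to CTTTGAT, on the opposite strand, starting 52 bases before the start. The windows of Ccnd3, Cdk6, Ccne1 and E2f1 held none of these letters. Of all 32851 windows, 4.6% held GCGGGAA, 2.45% held GCGCCAA and 3.73% held CTTTGAT. The 150 bases before the start are shown for the genes with a match, 5′ to 3′ along the gene (assembly GRCm38.p6), with the matches in capitals. They are chr10:128705052-128705201, minus strand, for Cdk2 and chr10:127063385-127063534, plus strand, for Cdk4.
Cdk2: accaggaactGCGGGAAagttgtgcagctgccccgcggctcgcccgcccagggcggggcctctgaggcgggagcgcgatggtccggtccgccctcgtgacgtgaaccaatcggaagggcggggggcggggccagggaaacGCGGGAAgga
Cdk4: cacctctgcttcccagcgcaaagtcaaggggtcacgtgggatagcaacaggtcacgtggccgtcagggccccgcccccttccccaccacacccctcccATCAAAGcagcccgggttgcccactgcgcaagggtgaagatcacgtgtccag

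The values are MAS5 signals, the brightness of a probe set on a linear scale, and a level of 1 probe set says nothing against the level of another. The floor was the 95th percentile of 80 probe sets for olfactory and vomeronasal receptors, a signal of 12.7 on the array with CHIR99021 and 19.2 on the array without it. Most genes were dimmer with CHIR99021: over 12917 genes above the floor on at least 1 array the median log2 ratio, present over absent, was -0.42, and 22.6% of them had a ratio above 0. Ratios are given on the deposited scale, and their distance from this median gene is given where it matters. The ratio of 3' to 5' signal was 3.18 with CHIR99021 and 1.29 without it for beta-actin, and 1.62 and 0.737 for Gapdh, both higher with the inhibitor. Of 8 epithelial markers 1 was at least 2-fold higher and 4 lower, with summed signals of 15909 with and 27669 without CHIR99021. Epcam read 3743 with and 3846 without CHIR99021 and Cdh1 read 3574 with and 6414 without. Krt8 was 2.45-fold and Krt18 2.38-fold lower with CHIR99021. Sox9, of the distal tip, was the higher one, and the transcription factors Nkx2-1 (52.0 without CHIR99021), which defines lung epithelium, and Sox2 (285 without), of the airway, did not reach the floor with CHIR99021. Of 8 mesenchymal markers 4 were below the floor on both arrays (Pdgfra, Pdgfrb, Twist1 and Tbx4). The measured ones, Col1a1, Col1a2, Col3a1 and Acta2 (194 with and 199 without CHIR99021), ran from log2 ratios of -0.70 to 0.54. The summed signals of the 8 were 363 with and 418 without CHIR99021. Of 5 endothelial markers 4 were below the floor on both arrays, as were 2 of 5 blood markers, and of 3 mesothelial markers Wt1 and Upk3b were. The measured blood markers, Cd68, Adgre1 and Csf1r, ran from log2 ratios of -0.76 to 0.17. Msln did not reach the floor with CHIR99021 and read 471 without it. The part of these differences in the ratios of the 10 genes was not tested.

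The member that differed most was Ccnd2, cyclin D2, which was lower with CHIR99021 by all 7 of its probe sets. The D-type cyclins Ccnd1 and Ccnd3 were lower as well, though close to the median gene by their brightest probe sets. Median centring raised the log2 ratios of these probe sets above 0. It shifts every ratio alike, so it could not change their place below the median gene. The kinase partners Cdk4 and Cdk6 had higher signals with CHIR99021. By their brightest probe sets the downstream E-type cyclins, Cdk2 and E2f1 differed by less than 1.5-fold in either direction, and Rb1 was 1.61-fold lower. A gene was counted as higher or lower when its brightest probe set differed at least 2-fold. By that measure 1 of the 10 genes was lower, where 18.4% of all measured genes were, and 0 were higher, where 1.9% of all were. Both counts are thus near the background, and the members' median log2 ratio of -0.45 lay close to the -0.42 of all measured genes.

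**Figure D1:**
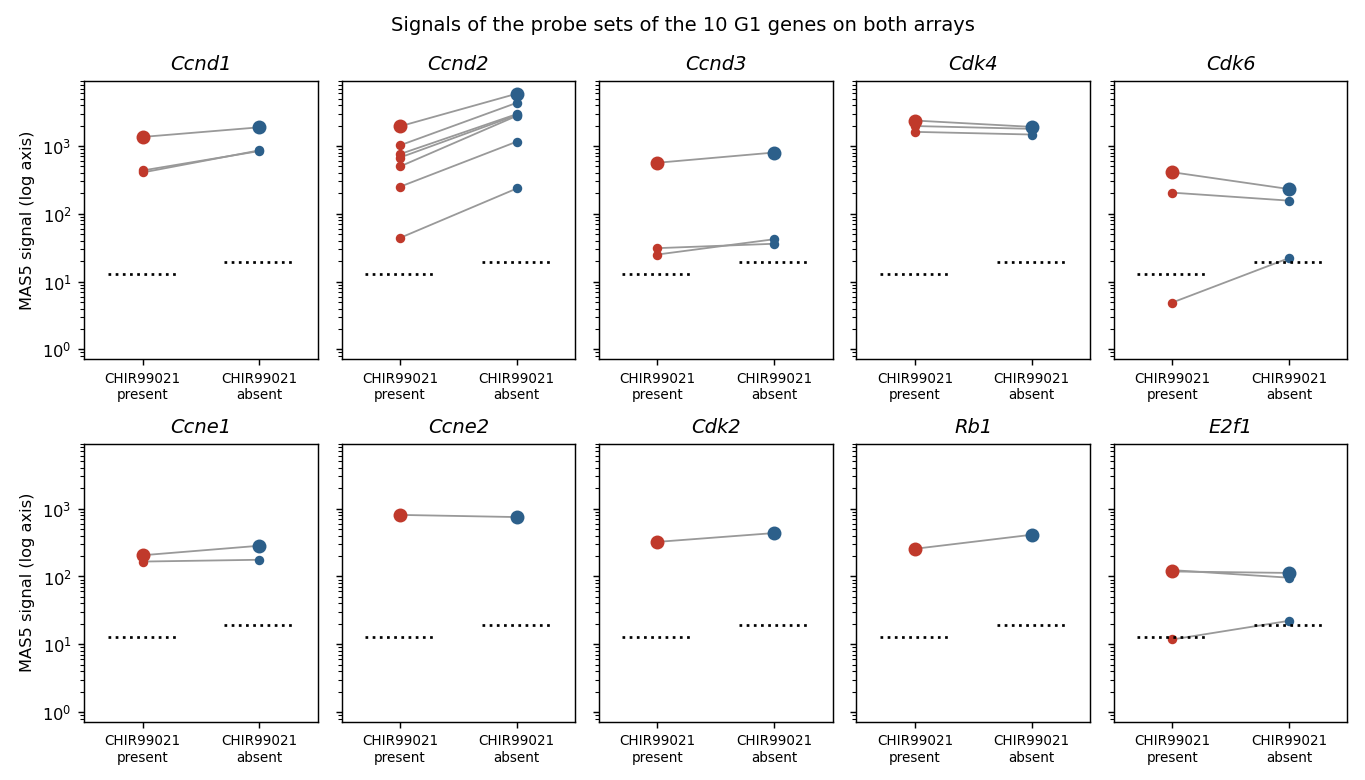
MAS5 signal (log axis) of each member probe set above the floor on at least 1 array, with CHIR99021 present (red, left) and absent (blue, right), joined by a line; the larger points are each gene's brightest probe set and the dotted lines the floors of 12.7 and 19.2. All 7 Ccnd2 probe sets are lower with CHIR99021, and all 3 of Cdk4 are higher.

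Ccnd2 had a signal of 1952 with CHIR99021 and 5911 without it by its brightest probe set, 1434745_at. This was a 3.03-fold lower signal, a log2 ratio of -1.60, which placed the gene at percentile 6.15 of all measured genes. The probe set 1416122_at read 1022 with and 4336 without CHIR99021, 4.24-fold lower. Cyclin D2, like the other D-type cyclins, links growth signals to Cdk4 and Cdk6, and its transcript is represented by more probe sets here than that of any other member. Probe set 1448229_s_at read 760 with and 2953 without CHIR99021, 3.89-fold lower, and 1455956_x_at read 675 with and 2860 without, 4.23-fold lower. The suffixes s and x mark probe sets whose probes can also match other transcripts. Probe set 1430127_a_at read 499 with and 2783 without CHIR99021 and had the lowest ratio of the 7, 5.58-fold lower. Probe set 1416123_at read 251 with and 1159 without CHIR99021, 4.62-fold lower. The dimmest, 1416124_at, read 44.1 with and 236 without CHIR99021, 5.36-fold lower. Every Ccnd2 probe set was thus above the floor on both arrays and lower on the array with CHIR99021.

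The log2 ratios of the 7 Ccnd2 probe sets ran from -2.48 to -1.60 with a median of -2.08 and an SD of 0.30, which measures probes and not cultures. Over 5335 genes with at least 2 probe sets that exceeded both floors, the SD between probe sets of 1 gene was 0.56. Among the members' 25 probe sets that exceeded both floors 8 were at least 2-fold lower, 7 of them of Ccnd2, and 22.5% of all such probe sets naming 1 gene were. Of the 25, 0 were at least 2-fold higher, against 1.41% of all such probe sets. On the array 47 genes had at least 7 probe sets that exceeded both floors, and in 3 of these (Ccnd2, and Atp8a1 and Malat1, which were named after their values were seen) every probe set was at least 2-fold lower. The median log2 ratio of the other Ccnd2 probe sets minus that of the brightest was -0.55. This difference was likewise below 0 in 67.2% of 5334 genes, with a median of -0.22 over all of them, on arrays whose 3' to 5' ratios differed; the part of 3' bias in the size of the Ccnd2 ratio was not tested. After median centring, which raised every log2 ratio by the same amount, the brightest Ccnd2 probe set had a log2 ratio of -0.98, just short of 2-fold, and the other 6 had -1.86 to -1.34.

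Ccnd1, cyclin D1, had a signal of 1360 with CHIR99021 and 1886 without it by its brightest probe set, 1.39-fold lower. The probe set 1417419_at read 435 with and 842 without CHIR99021, 1.94-fold lower, and 1448698_at read 406 with and 862 without, 2.12-fold lower. All 3 probe sets of this often cited Wnt target were lower with the Wnt activator present. Lower probe sets were common, as 20.5% of all probe sets naming 1 gene and above both floors were higher. By the brightest one, with a log2 ratio of -0.47, it was at -0.05 relative to the median gene, at percentile 46.5, whereas the median over its probe sets was -0.95. After loess normalization, which removes the dependence of the ratio on signal, its log2 ratio was -0.22. After median centring it was 0.15, where the median measured gene was at 0.20. The sign of the brightest probe set thus depends on the scaling. This probe set lay below the median gene on the deposited scale and after loess. Median centring shifts every ratio alike, so it could not change that position. The dimmer probe sets were at -0.33 and -0.46 after median centring.

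Ccnd3, cyclin D3, had a signal of 566 with CHIR99021 and 801 without it, 1.42-fold lower. Its dimmer probe sets read 31.1 with and 36.1 without CHIR99021, and 25.05 with and 42.1 without, close to the floor on both arrays. All 3 were lower with the inhibitor, where 20.5% of all probe sets naming 1 gene and above both floors were higher. The log2 ratio of -0.50 was close to that of the median gene. It became -0.13 after loess and 0.12 after median centring, where the median measured gene was at 0.20. By their brightest probe sets, and relative to the log2 ratio of the median gene, Ccnd2 was at -1.17, Ccnd1 at -0.05 and Ccnd3 at -0.08.

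Cdk4, a kinase partner of the D-type cyclins, had a signal of 2373 with CHIR99021 and 1914 without it by its brightest probe set, 1422441_x_at, 1.24-fold higher. The probe set 1422439_a_at read 1969 with and 1789 without CHIR99021, and 1422440_at read 1615 with and 1475 without. All 3 probe sets were slightly higher with CHIR99021, at log2 ratios of 0.13 to 0.31. Of 2288 genes with at least 3 probe sets that exceeded both floors, 4.37% had every one of them higher. The log2 ratio of Cdk4 lay 0.74 above the median gene, at percentile 89.9, and was 0.52 after loess and 0.93 after median centring.

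Cdk6, the other kinase partner of the D-type cyclins, had a signal of 410 with CHIR99021 and 231 without it, 1.77-fold higher and the highest ratio of the 10 genes. Its probe set 1455287_at, annotated with the same target sequence, read 205 with and 156 without CHIR99021, 1.31-fold higher. The dimmest probe set of Cdk6, which was near background, did not reach the floor with CHIR99021 and read 22.2 without it, a signal at least 1.74-fold lower with the inhibitor. Cdk6 lay at percentile 97.2 of all measured genes, 1.25 above the median gene on the log2 scale. Its log2 ratio of 0.83 on the deposited scale stayed under the 2-fold threshold there, and was 1.29 after loess, 1.36 after quantile normalization and 1.45 after median centring, past it. With loess 1 of the 10 genes was thus higher, against 6.02% of all genes, and 1 was lower, against 7.29%.

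**Figure D2:**
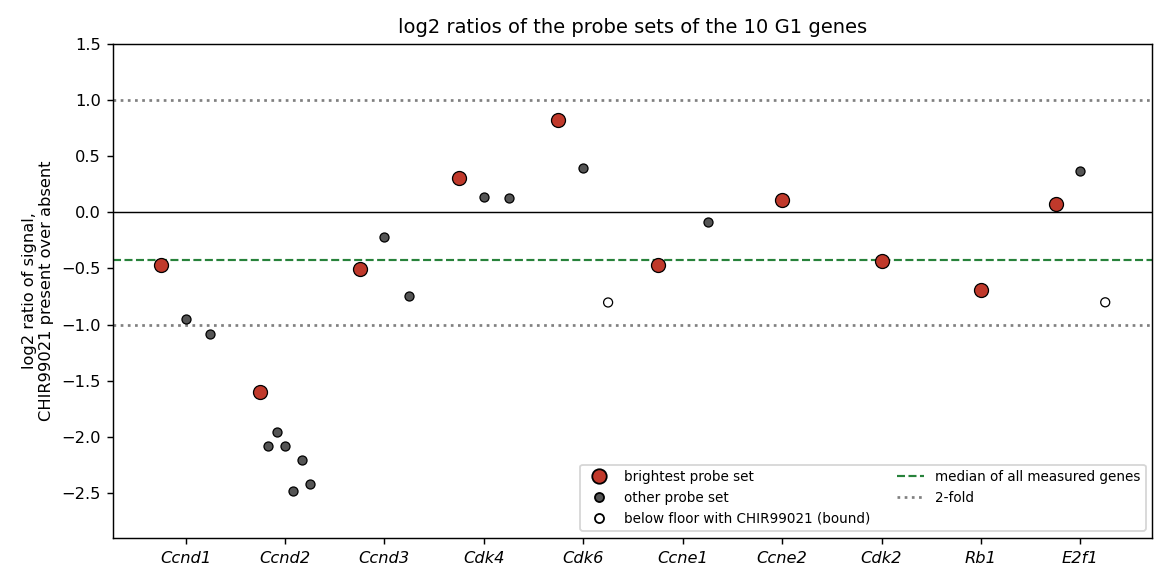
log2 ratio of signal, CHIR99021 present over absent, for each member probe set above the floor on at least 1 array; large red points are the brightest probe set of a gene, small grey points the others, and open points those below the floor with CHIR99021. The dashed line is the median of all measured genes (-0.42) and the dotted lines 2-fold; all 7 probe sets of Ccnd2 lie at -1.60 or lower, and Cdk4 and the brighter probe sets of Cdk6 lie above 0.

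The E-type cyclins and Cdk2, which act after the D-type cyclins, stood close to or somewhat above the median gene. Ccne1, cyclin E1, had a signal of 206 with CHIR99021 and 284 without it by its brightest probe set, 1.38-fold lower. Its other probe set, 1416492_at, read 166 with and 176 without CHIR99021, 1.06-fold lower. Ccne1 was at -0.04 relative to the median gene, and its log2 ratio of -0.47 became 0.02 after loess. Its brightest probe set, 1441910_x_at, carries the suffix x. Without probe sets ending in _x_at or _s_at the log2 ratio of Ccne1 was -0.09, where the median measured gene was at -0.44. Ccne2, cyclin E2, had a signal of 809 with CHIR99021 and 752 without it by its only probe set, 1.08-fold higher. Its log2 ratio of 0.11 lay 0.53 above the median gene, at percentile 82.5, and was 0.46 after loess. Cdk2, the kinase that both E-type cyclins activate, had a signal of 324 with CHIR99021 and 437 without it, 1.35-fold lower. At percentile 49.4 it was at -0.01 relative to the median gene on the log2 scale, and its log2 ratio was 0.00 after loess. The second Cdk2 probe set, 1447617_at, was below the floor on both arrays.

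Rb1, which holds E2F factors inactive until it is phosphorylated, had a signal of 256 with CHIR99021 and 412 without it. This was 1.61-fold lower, a log2 ratio of -0.69, or -0.26 relative to the median gene, at percentile 32.9. It was -0.23 after loess and -0.06 after median centring, and the second Rb1 probe set was below the floor on both arrays. E2f1, the factor that drives genes of DNA synthesis, had a signal of 118 with CHIR99021 and 113 without it, 1.05-fold higher. Its probe set 1431875_a_at read 124 with and 95.9 without CHIR99021, 1.29-fold higher. A dim further probe set, 1447840_x_at, did not reach the floor with CHIR99021 and read 22.2 without it, a signal at least 1.74-fold lower with the inhibitor. By the brightest probe set E2f1 lay 0.50 above the median gene at percentile 80.9, and its log2 ratio of 0.07 was 0.62 after loess.

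Ordered by the log2 ratio of the brightest probe set, Cdk6 came first at 0.83, followed by Cdk4 at 0.31, Ccne2 at 0.11 and E2f1 at 0.07. Below 0 came Cdk2 at -0.43, Ccne1 and Ccnd1 at -0.47 each, Ccnd3 at -0.50, Rb1 at -0.69 and Ccnd2 at -1.60. The gap between Rb1 and Ccnd2 was wider than the SD of 0.56 between probe sets of 1 gene, and every other gap between neighbours in this order was narrower than that SD. Relative to the median gene 4 members lay above and 6 below. After loess 6 of the 10 ratios were above 0, where the median measured gene was at 0.04. Of these Ccne1, at 0.02, and Cdk2, at 0.00, lay below that median gene. Ccnd2 stayed the lowest and Cdk6 the highest after loess and after quantile normalization. Median centring and scaling on hybridization controls shifted every ratio by the same amount, so they could not change the order. Over all 5 scalings Ccnd2 lay between -1.60 and -0.98 and Cdk6 between 0.83 and 1.45.

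**Figure D3:**
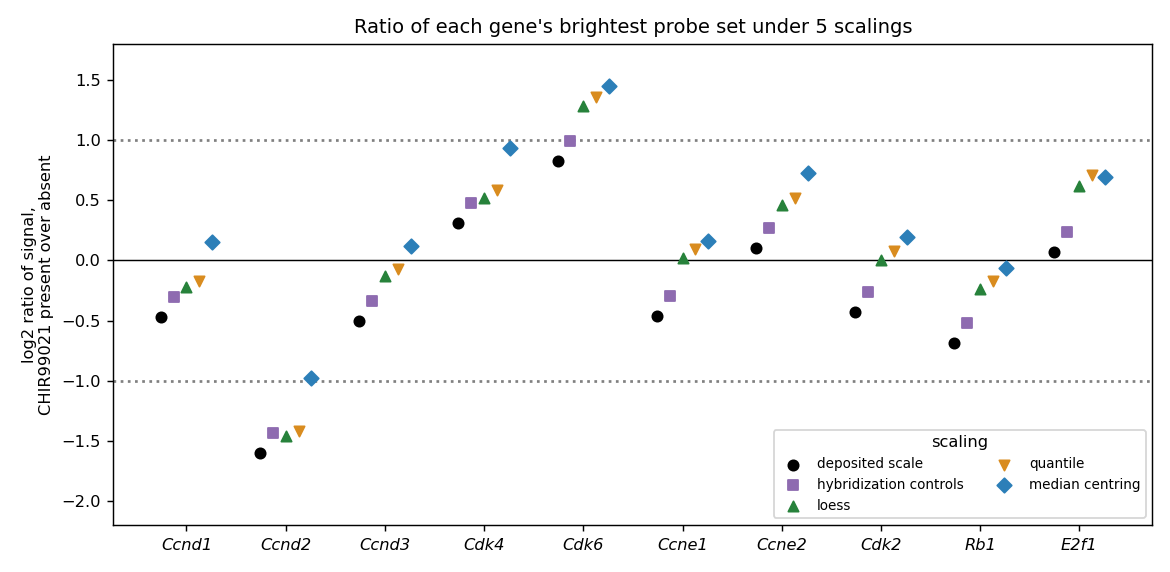
log2 ratio of signal, CHIR99021 present over absent, of each gene's brightest probe set on the deposited scale and after 4 other scalings (symbols as in the legend); dotted lines mark 2-fold. Ccnd2 is lowest and Cdk6 highest under each scaling, though only loess and quantile normalization could change the order. Ccnd1, Ccnd3, Ccne1 and Cdk2 are below 0 on the deposited scale and above it after median centring, where the median measured gene is at 0.20.

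The partners of Rb1 and E2f1 were split. Of 11 measured genes of the Rb family and of the E2F and DP factors, 0 were at least 2-fold higher and 2 lower with CHIR99021, where 1.9% and 18.4% of all measured genes were, with a median log2 ratio of -0.11 that was 0.37 after loess and -0.62 with the median of all probe sets of a gene. With median centring 3 of the 11 were higher and 0 lower, where 1112 and 763 of all 12917 measured genes were. After quantile normalization 2 and 1 of the 11 were, against 953 and 831 of all measured genes. Rbl2, which encodes the Rb relative p130 of resting cells, had a signal of 131 with CHIR99021 and 394 without it, 3.0-fold lower, and its other probe set had a log2 ratio of -2.09. E2f4, a mainly repressive E2F factor, did not reach the floor with CHIR99021 and read 33.6 without it, a signal at least 2.64-fold lower with the inhibitor. Tfdp2, a dimer partner of E2F factors, had 225 with and 374 without CHIR99021, with other probe sets from -1.63 to 0.64 on the log2 scale.

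Genes of DNA synthesis that E2F factors are known to switch on mostly lay above the median gene by their brightest probe sets. Of 19 measured targets 0 were at least 2-fold higher and 0 lower on the deposited scale, against 1.9% and 18.4% of all measured genes. Log2 ratios above 0 were found in 12, where 22.6% of all measured genes had them. Above the median gene lay 18, with a list median of 0.15, or 0.48 after loess. Other probe sets of the targets spread widely, from a log2 ratio of -2.93 in Mcm3 to 0.50 in Mcm2. After median centring 5 of the 19 targets were higher and 0 lower, where 1112 and 763 of all 12917 measured genes were. Loess gave 2 and 0, against 6.02% and 7.29% of all measured genes. Quantile normalization also gave 2 and 0, against 953 and 831 of the 12917. With the median of all probe sets of a gene 0 were higher and 2 lower, against 189 and 2623 of 12962 genes. The target below the median gene was Rpa2, a subunit of the protein that coats single-stranded DNA, with 280 with and 425 without CHIR99021. Its other probe set had a log2 ratio of -2.13. Ccna2, cyclin A2, had the highest ratio, with 1717 with and 920 without CHIR99021, while its other probe set had a log2 ratio of -0.47. Tyms, thymidylate synthase, had 85.9 with and 61.5 without CHIR99021, 1.40-fold higher, and its other probe set had a log2 ratio of 0.29. E2f1 and Ccne2, with log2 ratios of 0.07 and 0.11, were near this list's median, and Ccne1 and Cdk2 were below it.

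Inhibitors of the G1 kinases differed in direction. Of 7 measured inhibitor genes 1 was at least 2-fold higher and 2 lower, against 1.9% and 18.4% of all measured genes. Median centring gave 2 higher and 1 lower, where 1112 and 763 of all 12917 measured genes were. The list had a median log2 ratio of -0.78, or -0.26 after loess. Cdkn2b, p15, which blocks Cdk4 and Cdk6, had a signal of 281 with CHIR99021 and 1144 without it, 4.08-fold lower. Cdkn1c, p57, had 1324 with and 3363 without CHIR99021, 2.54-fold lower. Cdkn1a, p21, had 1771 with and 838 without CHIR99021, 2.11-fold higher, and a further probe set had a log2 ratio of 0.25.

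The next list held 12 genes for the activation of the G1 kinases and the turnover of their cyclins and inhibitors. Of these, 1 was at least 2-fold higher and 1 lower, against 1.9% and 18.4% of all measured genes. Median centring gave 1 higher and 0 lower, where 1112 and 763 of all 12917 measured genes were. The median log2 ratio of the 12 genes was -0.15, or 0.30 after loess. With the median of all probe sets of a gene it was -0.38, where the median measured gene was at -0.50. Without probe sets ending in _x_at or _s_at it was -0.42, where the median measured gene was at -0.44. Skp2, the ubiquitin ligase subunit that removes the inhibitor p27, had 924 with and 414 without CHIR99021, 2.23-fold higher, and its 4 other probe sets ran from -0.16 to 1.10 on the log2 scale. Fbxo4, an F-box protein linked to the breakdown of cyclin D1, had 94.4 with and 214 without CHIR99021, 2.27-fold lower. Fbxo31, another F-box protein linked to cyclin D1, had 37.4 with and 65.9 without CHIR99021.

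Of 10 measured other cyclins and cyclin-dependent kinases 0 were at least 2-fold higher and 2 lower, against 1.9% and 18.4% of all measured genes. After median centring 0 were higher and 0 lower, where 1112 and 763 of all 12917 measured genes were. The median log2 ratio of the 10 was -0.42, that of all measured genes, or -0.11 after loess. Cdk5, a kinase best known from neurons, had 101 with and 231 without CHIR99021, 2.29-fold lower, and its other probe set had a log2 ratio of -0.50. Ccng2, cyclin G2, a cyclin of resting cells, had 542 with and 1146 without CHIR99021, 2.11-fold lower, and its other probe set had a log2 ratio of -2.69. Ccng1, cyclin G1, a p53 target, had 1771 with and 2737 without CHIR99021, with other probe sets from -2.84 to -1.11 on the log2 scale.

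The 12 measured regulators upstream of cyclin D genes differed in direction. Of these, 2 were at least 2-fold higher and 4 lower, against 1.9% and 18.4% of all measured genes. After median centring 4 were higher and 3 lower, where 1112 and 763 of all 12917 measured genes were. The regulators had a median log2 ratio of -0.20, or 0.00 after loess. With the median of all probe sets of a gene it was -0.68, where the median measured gene was at -0.50. Lef1, through which beta-catenin acts on DNA, had 225 with and 29.8 without CHIR99021, 7.57-fold higher. Fos, an AP-1 factor of the growth factor response, had 53.0 with and 368 without CHIR99021, 6.95-fold lower. Myc, described as an activator of Ccnd2 in other cells, had 41.5 with and 263 without CHIR99021, 6.32-fold lower. These 3 genes and Ccnd2 are each read from the same pair of arrays, and no relation between them was tested.

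**Figure D4:**
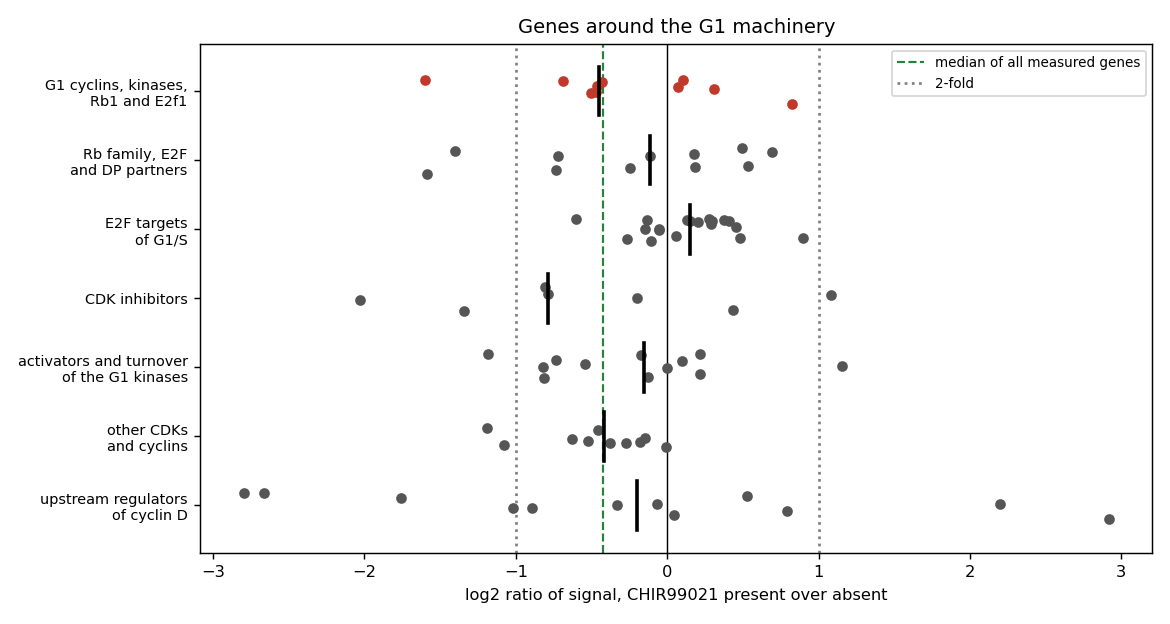
log2 ratio of signal, CHIR99021 present over absent, of each measured gene (points) in the 10 G1 genes (red) and in 6 lists around them (grey); black bars are list medians, the dashed line is the median of all measured genes (-0.42) and dotted lines mark 2-fold. The E2F targets of G1/S lie within 2-fold on the deposited scale, 18 of 19 of them above the median gene, and the regulators upstream of cyclin D spread from -2.80 to 2.92.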

How the data were processed

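Gene expression was measured on Affymetrix arrays, 1 per condition, from 100 ng of total RNA labelled by a 3' in vitro transcription kit, per the labels' protocols. Per the submitters' processing notes the authors used MAS5, with no version or scaling target given, and the deposited values are linear signal intensities. The 2% trimmed means of the deposited intensity values were 151 with CHIR99021 and 204 without it, so the arrays had not been brought to 1 common trimmed mean, and the scaling used stays unknown.

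Genes were named from the platform annotation, and 34945 probe sets other than controls named exactly 1 gene. The Entrez identifiers of all 10 members were found in a RefSeq table. A gene was represented by its brightest probe set by mean log2 signal. Values below the floor were raised to it, so such ratios are bounds ("at least"). The fold threshold was 2. Named genes were all members and up to 3 genes per list with the largest absolute log2 ratio. The members and lists were chosen with earlier results of these data known. Loess (span 0.4) was run with statsmodels 0.14.6, trimmed means with scipy 1.17.1, figures with matplotlib 3.10.9 and the rest with pandas 2.3.3 and numpy 2.4.6 in Python 3.11.15. The procedure was also run on simulated data with a uniform shift between arrays and equal changes in all probe sets of a gene. Such data are simpler than these arrays, so that run checks the code and not the results given here. The number of arrays limits the precision.

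Alternatives were median centring, quantile normalization, loess, scaling on 9 hybridization control probe sets, floors at percentiles 90 and 99 or none, an offset of 16, the median of all probe sets of a gene, no probe sets ending in _x_at or _s_at, folds of 1.5 and 3, and the mean of a list.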

Additional observations from a re-analysis of the deposited data

How the results depend on the processing

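No paired analysis was possible because each condition had 1 array. Across 13 alternatives, 605 values were recomputed: 488 moved by less than the SD of 0.56 between probe sets of 1 gene (for counts, by at most 1.5 times), and 117 moved by more. A change of sign was looked for only in ratios past 2-fold on the deposited scale, where 0 were found. The scalings moved ratios too little to reverse these. Smaller ratios did cross 0, such as those of Ccnd1, Ccnd3, Ccne1 and Cdk2 after median centring. Of the 488, 275 equalled the reported value, many because the alternative could not change it, such as a floor for a probe set above it. Over the 4 scalings, which could, 27 of the 28 values of the Ccnd2 probe sets were at least 2-fold lower, from -2.31 to -0.98.

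Median centring raised every log2 ratio above the floor by the same amount, and gave 0.15 for Ccnd1, -0.98 for Ccnd2, 0.12 for Ccnd3, 0.93 for Cdk4, 1.45 for Cdk6, 0.16 for Ccne1, 0.73 for Ccne2, 0.19 for Cdk2, -0.065 for Rb1 and 0.70 for E2f1, with a members' median of 0.17, 1 member higher and 0 lower. List medians were then 0.51 for the Rb, E2F and DP partners, 0.77 for the E2F targets, -0.16 for the inhibitors, 0.47 for activators and turnover, 0.20 for other cyclins and kinases and 0.43 for the upstream regulators. Quantile normalization gave 0.10 for Ccne1, 0.71 for E2f1 and -0.17 for the inhibitors, with 1 member higher, as with loess. At a fold of 1.5 there were 1 member higher and 2 lower, where 652 and 5005 of all 12917 measured genes were. At 2-fold, 1112 and 763 of all genes were higher and lower after median centring. Quantile normalization gave 953 and 831 of them, and loess 778 and 942.

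Over all genes 245 were higher and 2380 lower on the deposited scale, 1112 and 763 after median centring, 953 and 831 after quantile normalization, 778 and 942 after loess, 1213 and 4606 without a floor, 652 and 5005 at a fold of 1.5, and 81 and 812 at a fold of 3. Higher genes made up 9.33% of these calls on the deposited scale, 59.3% after median centring, 53.4% after quantile normalization, 45.2% after loess and 20.8% without a floor. The median log2 ratio of all measured genes was 0.20 after median centring, 0.12 after quantile normalization and 0.04 after loess. The dimmest probe sets of Cdk6 and E2f1 were above the floor without CHIR99021 only, so their ratios are bounds, and those of Rb1 and Cdk2 were below it on both arrays and have none.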
